A study of Homo sapiens with 9 samples.

Results

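Solute carrier genes encode membrane proteins that move small molecules across the plasma membrane and the membranes of organelles, and those expressed in the human pancreatic cancer line BxPC3 were compared between 3 groups of libraries. A gene was a member when its symbol had the form SLC, family number, letter and member number, and when it reached 1 FPKM (fragments normalised for the length of the transcript and for the mapped total of the library) or more in at least 3 of 9 RNA-seq libraries. SLC2A1, SLC7A11, SLC40A1 and SLC11A2 were left out by name. Of 366 matching symbols among 60564 rows, 4 were left out by name and 190 fell below the level rule, 40 of them at 0 in every library. The other 172 were members. The members were therefore chosen by their level in these same libraries, and 10 of them were at or above 1 FPKM in the libraries of 1 group only.

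BxPC3 is an established line from a pancreatic ductal adenocarcinoma, kept in medium with serum. The 3 groups of 3 libraries were cells given vehicle, cells that received a small interfering RNA (siRNA) to lower STAT3, and cells given WB436B, known here only by its code name, at a dose of 0.1 µM. The labels call the 3 libraries of a group biological replicates and say nothing more of separate cultures, so the p-values reflect library-to-library spread, which may be technical. All groups are of 1 line, no non-targeting siRNA is among the groups, and the time under treatment is not stated in the labels.

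The solute carriers are grouped in families by sequence, and members of a family often share a kind of substrate. Amino acid carriers of the SLC1, SLC6, SLC7, SLC36 and SLC38 families feed protein synthesis, glutathione synthesis and nutrient sensing in tumour cells, and several depend on the sodium gradient kept by the Na+/K+ pump. The SLC25 family sits mostly in the inner mitochondrial membrane and exchanges nucleotides, phosphate, cofactors and metabolites between the cytosol and the matrix. The SLC30 (ZnT) and SLC39 (ZIP) families work in opposite directions, moving zinc out of and into the cytosol, and the SLC35 family brings nucleotide sugars into the Golgi and endoplasmic reticulum.

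The targeted gene, STAT3, stood at 16.4, 15.8 and 15.1 FPKM in vehicle, 2.98, 2.58 and 3.02 after its siRNA and 10.5, 10.9 and 10.8 under WB436B, without overlap between groups. An exact two-sided permutation test of 3 against 3 libraries gave p = 0.1 for each pair of groups, the smallest value it can give. Estimated depth was 14900000 to 47200000 fragments, with the highest estimate in vehicle 1, but such an estimate may be off by a whole multiple. In each vehicle and STAT3 siRNA library 12231 to 12329 genes reached 1 FPKM, against 10846 to 10903 in the WB436B libraries. Of 8 markers of ductal epithelium, 7 reached 1 FPKM in all 9 libraries (KRT19 at 322.5 to 732.3 FPKM). MUC1, 1 of those 7, was at 8.12 to 8.27 FPKM in vehicle, 1.5 to 1.9 after STAT3 siRNA and 1.64 to 2.08 under WB436B. Of 16 markers of other pancreatic or stromal cells, 13 were below 1 FPKM throughout (all acinar, endocrine and endothelial ones), the immune marker CD68 was at 2.28 to 5.12 FPKM, and the 4 stromal markers summed to 2.54 to 2.73 FPKM in vehicle, 3.63 to 3.90 after STAT3 siRNA and 0.875 to 1.05 under WB436B, mostly COL1A1 and COL3A1. Their part in the results was not tested, and in bulk RNA fewer cells of a kind cannot be told apart from less RNA per cell.

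By substrate the 172 members were 34 SLC25 mitochondrial carriers, 25 ion carriers, 21 amino acid carriers, 17 zinc carriers, 13 sugar carriers, 13 nucleotide sugar carriers and 49 carriers of other substrates. Classes were assigned mostly by family, and the nucleotide sugar class holds related orphans as well. In vehicle the median member averaged 4.04 FPKM, 36 members averaged 10 FPKM or more, and 3 averaged 100 or more. SLC25A5, an ADP/ATP exchanger of the inner mitochondrial membrane, was the highest at 511, 496 and 516 FPKM and made up 25.4% of the members' summed FPKM in vehicle, 20.1% after STAT3 siRNA and 24.3% under WB436B. SLC38A2, a sodium-coupled neutral amino acid carrier, was the next at 155, 154 and 155 FPKM in vehicle, followed by SLC1A5, a sodium-dependent glutamine carrier, at 149, 101 and 101. Summed over all members, FPKM was 2035, 1986 and 1982 in vehicle, 2047, 2128 and 2047 after STAT3 siRNA, and 1944, 1893 and 1978 under WB436B. As deposited, STAT3 siRNA libraries were all above vehicle and WB436B libraries all below it. FPKM totals over all genes differed too, at 275298, 289778 and 303156 in vehicle, 276963, 276010 and 282413 after STAT3 siRNA and 278340, 278303 and 268964 under WB436B. Neither this sum nor the class sums below were divided by those totals, so the order of a class sum may differ on equal totals. Relative to the totals, the sums over all members of each treatment overlap those of vehicle, so no order of groups is read from them.

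The libraries of a group resembled each other for most members: the median coefficient of variation within a group was 7.37% in vehicle, 7.12% after STAT3 siRNA and 7.07% under WB436B. It passed 50% in at least 1 group for 7 members, SLC7A2, SLC39A9, SLC25A43, SLC36A1, SLC35E1, SLC6A6 and SLC39A1. Of the 172 members, 137 reached 1 FPKM in all 9 libraries. The members nearest the level rule had a third-highest value of 1.08 FPKM (SLC15A3) and 1.08 (SLC4A3), and the nearest genes outside it had 0.994 (SLC22A18), 0.925 (SLC26A9) and 0.923 (SLC16A13). Of the 10 genes that reached 1 FPKM in the libraries of 1 group only, SLC15A3, SLC4A3, SLC27A1, SLC10A6 and SLC44A4 did so in vehicle, and SLC1A4, SLC2A13 and SLC16A14 after STAT3 siRNA. The other 2 did so under WB436B, SLC45A3 being 1 of them. Membership of those 10 genes rested on 1 group, so a difference in them was part of how they were chosen. A further 2 members (SLC12A8 and SLC43A3) were below 1 FPKM in vehicle only, 1 after STAT3 siRNA only and 3 under WB436B only. Their difference from that group was likewise tied to the level rule.

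Against vehicle, STAT3 siRNA was accompanied by more members called higher than lower, and WB436B by more called lower than higher. Calls came from a limma fit of log2(FPKM + 1) over all 12747 genes that met the level rule, at an adjusted p (Benjamini-Hochberg) under 0.05. Every log2 fold change below is on that scale, with its standard error (SE). After STAT3 siRNA, 60 of 172 members (34.9%) were higher and 42 (24.4%) lower, where 29.8% of all genes tested were higher and 22.3% lower. The median member changed by 0.08 on the log2 scale and the median gene by 0.06. Under WB436B, 51 members (29.7%) were higher and 70 (40.7%) lower, where 24.9% of all genes were higher and 41.1% lower, with medians of -0.06 for members and -0.13 for all genes. These shares are close to the background, and both comparisons share the vehicle libraries.

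A change of 2-fold or more on this scale was called for few members. After STAT3 siRNA it was 2 higher and 5 lower, where 1.04% and 2.76% of all genes passed, and under WB436B it was 6 higher and 12 lower, where 2.54% and 7.93% passed. These counts hold SLC16A14, SLC10A6 and SLC44A4, each a member through 1 group alone. SLC19A1, counted as higher under WB436B, reached 1 FPKM in no vehicle library. Among members at 1 FPKM in all 9 libraries, 1 was higher and 2 lower after STAT3 siRNA, where 89 and 221 of all 9965 such genes passed. Under WB436B 5 of these members were higher and 8 lower, where 294 and 584 of those genes passed. WB436B libraries set against STAT3 siRNA libraries gave 42 members (24.4%) higher and 70 (40.7%) lower, where 20.0% of all genes were higher and 44.1% lower. Among the 137 members at 1 FPKM in all libraries, 47 rose and 29 fell after STAT3 siRNA, where 31.9% and 21.9% of all such genes did, and 40 rose and 53 fell under WB436B, where 29.3% and 35.8% did. The WB436B counts turned with the scaling of the libraries: median-of-ratios scaling gave 61 higher and 56 lower, and quantile normalization 70 and 46, while the median of all genes moved from -0.126 to -0.000403 and 0.0323. WB436B against STAT3 siRNA turned likewise, to 65 higher and 52 lower and to 62 and 46. The STAT3 siRNA counts kept more members higher than lower under both, at 54 and 45 and at 60 and 44.

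Counts by substrate class are given beside the shares of all genes, 29.8% higher and 22.3% lower after STAT3 siRNA and 24.9% and 41.1% under WB436B, and differences between classes were not tested. After STAT3 siRNA, 10 of 21 amino acid carriers were higher and 2 lower (median log2 fold change 0.30), 16 of 34 SLC25 members were higher and 6 lower (median 0.20), and 7 of 17 zinc carriers were higher and 2 lower (median 0.17). Among sugar carriers 1 of 13 was higher and 8 were lower (median -0.20), and among ion carriers 8 of 25 were higher and 6 lower (median 0.07), shares of 32% and 24% that lie near those of all genes. Under WB436B the sugar carriers had 2 higher and 8 lower (median -0.36), amino acid carriers 6 and 9 (median -0.02, with shares of 28.6% and 42.9% near those of all genes), SLC25 members 13 and 12 (median 0.03), zinc carriers 6 and 5 (median 0.13) and ion carriers 10 and 7 (median 0.05). The amino acid median under WB436B was above 0 with equal totals (0.05), median-of-ratios scaling (0.14) and quantile normalization (0.04). The sugar medians were below 0, and the SLC25, zinc and ion medians above 0, in both comparisons against vehicle under each of those scalings.

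**Figure D1:**
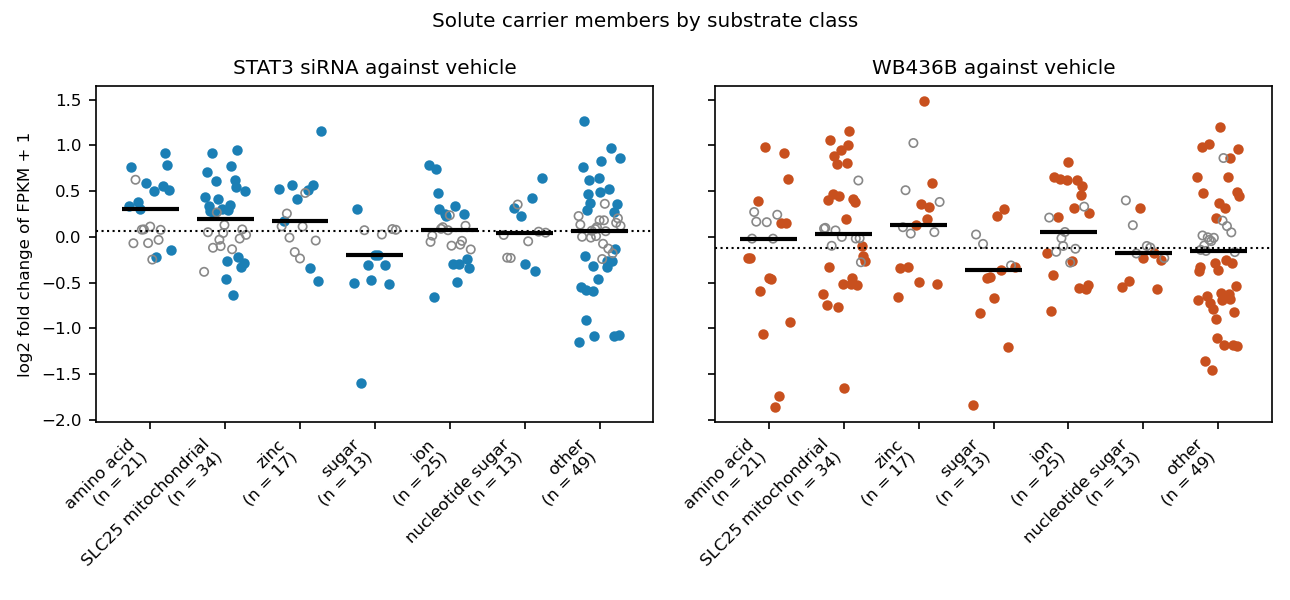
Each point is 1 member, placed by its log2 fold change of FPKM + 1 against vehicle, for STAT3 siRNA (left) and WB436B (right), in columns by substrate class. Filled points are called members, open points are not called, thick bars are class medians and the dotted line is the median of all 12747 genes. The sugar column lies mostly below 0 in both panels (8 of 13 members called lower in each), and the amino acid column of the left panel mostly above 0 (10 of 21 called higher).

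Promoter sequence was looked up for the members in RefSeq's table on GRCh38.p14, where 140 of the 172 matched with 208 start sites. The 250 bases before the start are shown for 4 members on which the results below turn: SLC7A5 and SLC25A33, which were higher after STAT3 siRNA, SLC2A6, which was lower after it, and SLC6A14, which was lower under WB436B, the last 2 each having the lowest log2 fold change of FPKM + 1 among members in that comparison. As ratios of mean FPKM, SLC10A6 after STAT3 siRNA and SLC2A10 under WB436B were lower still. Capitals mark exact matches to CACGTG (the E-box bound by MYC and MITF family factors) or TGACGTCA (the palindromic cyclic AMP response element), searched on both strands together with TTCNNNGAA (the STAT consensus).
SLC7A5, chr16:87869508-87869757, minus strand: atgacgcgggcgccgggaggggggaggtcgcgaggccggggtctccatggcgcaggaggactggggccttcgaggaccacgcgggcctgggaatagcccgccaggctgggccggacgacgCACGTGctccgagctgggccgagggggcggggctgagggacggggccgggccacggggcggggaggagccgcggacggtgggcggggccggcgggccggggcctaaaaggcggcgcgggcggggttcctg
SLC25A33, chr1:9539215-9539464, plus strand: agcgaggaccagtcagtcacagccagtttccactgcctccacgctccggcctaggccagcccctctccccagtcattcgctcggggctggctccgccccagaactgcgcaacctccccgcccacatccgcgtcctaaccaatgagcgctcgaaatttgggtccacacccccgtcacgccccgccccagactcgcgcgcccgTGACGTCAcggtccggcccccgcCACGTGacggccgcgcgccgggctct
SLC2A6, chr9:133479100-133479349, minus strand: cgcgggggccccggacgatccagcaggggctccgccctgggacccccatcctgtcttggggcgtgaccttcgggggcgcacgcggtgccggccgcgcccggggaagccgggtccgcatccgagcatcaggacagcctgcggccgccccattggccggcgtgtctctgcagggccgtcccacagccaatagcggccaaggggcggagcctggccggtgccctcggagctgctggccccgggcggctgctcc
SLC6A14, chrX:116436356-116436605, plus strand: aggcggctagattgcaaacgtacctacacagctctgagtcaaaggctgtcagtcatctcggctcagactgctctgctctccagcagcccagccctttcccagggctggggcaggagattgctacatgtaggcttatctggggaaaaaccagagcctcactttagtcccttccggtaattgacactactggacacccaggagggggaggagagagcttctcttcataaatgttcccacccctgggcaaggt
The SLC7A5 window holds 1 CACGTG whose first base lies 130 bases before the start. That of SLC25A33 holds TGACGTCA at 49 bases and CACGTG at 26 bases. None of the 3 motifs is in these windows of SLC2A6 and SLC6A14, which says only that these letters are absent there. CACGTG was present before 27 of the members' 208 starts (13.0%) and 6.34% of all 35116 promoters in the table, TTCNNNGAA before 15 (7.21%) and 6.57%, and TGACGTCA before 6 (2.88%) and 1.65%. The shares over the table include promoters of genes not expressed here, while members were chosen by expression, and a gene can count with several starts. A difference between these shares is therefore not a trait of solute carriers. These matches are descriptions of sequence, and no binding was measured. The motifs and the 4 genes shown were chosen after values were known, and whether a motif goes with the direction of change was not tested.

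Among the amino acid carriers, the subunits of the large neutral amino acid exchanger rose after STAT3 siRNA. SLC7A5 (LAT1), the light chain that exchanges leucine and other large neutral amino acids, stood at 77, 75.2 and 72 FPKM in vehicle, 128, 135 and 126 after STAT3 siRNA and 82.3, 81.2 and 86.3 under WB436B. Every STAT3 siRNA library was above every other library, and the log2 fold change was 0.79 (SE 0.0445, adjusted p = 3.3e-06). Under WB436B it was 0.15 (adjusted p = 0.014), a call lost with quantile normalization (0.04, adjusted p = 0.56). SLC3A2 (4F2hc), the heavy chain that carries SLC7A5 to the surface, was at 29.2, 30.6 and 29.9 FPKM in vehicle, 43.1, 45.2 and 39.8 after STAT3 siRNA and 29.4, 28.7 and 30.3 under WB436B. It was higher after STAT3 siRNA without overlap (log2 fold change 0.50, adjusted p = 8.5e-05), while its WB436B libraries overlapped vehicle (-0.02, adjusted p = 0.75, and 0.14 with adjusted p = 0.038 under median-of-ratios scaling). Set directly against STAT3 siRNA, WB436B libraries were lower in both chains, with differences of -0.63 for SLC7A5 and -0.52 for SLC3A2 (adjusted p = 6.1e-06 and 4e-05).

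Other amino acid exchangers moved after STAT3 siRNA too. SLC1A4 (ASCT1), an exchanger of alanine, serine and cysteine, was at 0.314, 0.425 and 0.289 FPKM in vehicle, 1.28, 1.24 and 1.29 after STAT3 siRNA and 0.123, 0.189 and 0.116 under WB436B. It was a member through its STAT3 siRNA libraries alone, and the fitted changes of 0.76 and -0.23 are given as a description, the second turning to 0.12 with quantile normalization. The cationic amino acid carrier SLC7A1 rose from 16.5 ± 0.927 to 24.7 ± 0.973 FPKM (SD, n = 3; log2 fold change 0.55, adjusted p = 7.5e-05), and SLC7A6, a light chain of a cationic and neutral amino acid exchanger, from 4.03 ± 0.40 to 6.19 ± 0.543 (0.52, adjusted p = 0.0014). Of the exon bases of SLC7A6, 55.6% are shared with SLC7A6OS on the opposite strand, and the labels do not state strandedness, so fragments of these genes cannot be told apart. SLC7A2, a second cationic carrier, was at 1.28, 0.624 and 2.57 FPKM in vehicle, 3.77, 3.32 and 3.31 after STAT3 siRNA and 2.75, 5.08 and 2.92 under WB436B and was called higher in both comparisons (0.92 after STAT3 siRNA, adjusted p = 0.024, and 0.92 under WB436B, adjusted p = 0.019). Its vehicle libraries spread widely: without vehicle 2 the values were 0.64 (adjusted p = 0.068) and 0.65 (adjusted p = 0.054). The STAT3 siRNA call was lost as well with no filter (adjusted p = 0.067) and without vehicle 1 or any 1 STAT3 siRNA library (adjusted p = 0.052 to 0.068), and the WB436B call without WB436B 2 (0.70, adjusted p = 0.064).

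Glutamine and neutral amino acid carriers of the SLC38 family split under WB436B. SLC38A2 (SNAT2) was at 155, 154 and 155 FPKM in vehicle, 168, 157 and 165 after STAT3 siRNA and 70.7, 74.4 and 76 under WB436B. Every WB436B library was below every other library, and the fitted change was -1.06 (SE 0.0424, adjusted p = 2.5e-07), whereas after STAT3 siRNA it was 0.08 (adjusted p = 0.14). SLC38A5 (SNAT5), a carrier of glutamine, asparagine and glycine, stood at 18.6, 17.2 and 19.1 FPKM in vehicle, 25.2, 31 and 27.9 after STAT3 siRNA and 36.1, 38.2 and 37.1 under WB436B. The groups did not overlap, and it rose by 0.58 after STAT3 siRNA (adjusted p = 0.00028) and by 0.98 under WB436B (adjusted p = 6.8e-06). SLC38A1 (SNAT1) rose by 0.30 and 0.39 (adjusted p = 0.002 and 0.00029). Of the lysosomal members, SLC38A9, an arginine sensor of the growth regulator mTORC1, was at 2.72 ± 0.485 FPKM in vehicle and 1.69 ± 0.117 under WB436B (-0.46, adjusted p = 0.0041), and SLC38A7 at 2.68 ± 0.413 and 1.69 ± 0.17 (-0.45, adjusted p = 0.0023). Both calls were lost with quantile normalization (adjusted p = 0.19 and 0.18).

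The lowest log2 fold changes of the class were in sodium- and chloride-coupled carriers of the SLC6 family under WB436B. SLC6A14 (ATB0,+), which takes up neutral and cationic amino acids, was at 7.84, 7.83 and 7.95 FPKM in vehicle, 6.51, 6.69 and 6.55 after STAT3 siRNA and 1.35, 1.4 and 1.6 under WB436B. The WB436B libraries were below all others, and the change was -1.86 (SE 0.0516, adjusted p = 5.8e-08) against -0.23 after STAT3 siRNA (adjusted p = 0.0063). SLC6A9 (GlyT1), a glycine carrier, was at 9.34, 9.27 and 8.84 FPKM in vehicle, 9.57, 9.91 and 9.62 after STAT3 siRNA and 2.11, 1.83 and 2.18 under WB436B. It fell under WB436B (-1.74, adjusted p = 8.9e-08) and was 0.08 after STAT3 siRNA (adjusted p = 0.28). SLC7A8 (LAT2), a light chain related to SLC7A5, was at 2.29, 2.23 and 2.21 FPKM in vehicle, 1.89, 1.97 and 1.93 after STAT3 siRNA and 0.724, 0.659 and 0.738 under WB436B. It fell by 0.93 under WB436B (adjusted p = 9.9e-07). Its smaller difference after STAT3 siRNA (-0.15, adjusted p = 0.034) lost its call under 11 alternatives, the pseudocount of 0.1 and the replicate block among them.

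Summed over the class, amino acid carriers gave 528.4, 487.8 and 478.3 FPKM in vehicle, 588.0, 639.9 and 582.0 after STAT3 siRNA and 443.8, 413.3 and 468.5 under WB436B. As deposited, the groups did not overlap, STAT3 siRNA being highest and WB436B lowest. Relative to the FPKM totals over all genes, the WB436B sums overlap vehicle, while the STAT3 siRNA sums stay above both. Such a sum follows its most abundant members. SLC38A2, the highest of the class in vehicle, fell under WB436B, while the median log2 fold change of the class was -0.02 there. The order of the sums is therefore not a fall of the class as a whole. The second most abundant member of the class in vehicle, SLC1A5 (ASCT2), was at 149, 101 and 101 FPKM in vehicle, 97.7, 142 and 94.7 after STAT3 siRNA and 127, 88 and 130.3 under WB436B. All 3 groups overlapped, each holding both low and high libraries (log2 fold change -0.07 after STAT3 siRNA and -0.02 under WB436B, SE 0.223 for both, adjusted p = 0.81 and 0.94). The taurine carrier SLC6A6 likewise had 1 library apart, at 2.21, 8.74 and 1.83 FPKM in vehicle, and was not called.

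**Figure D2:**
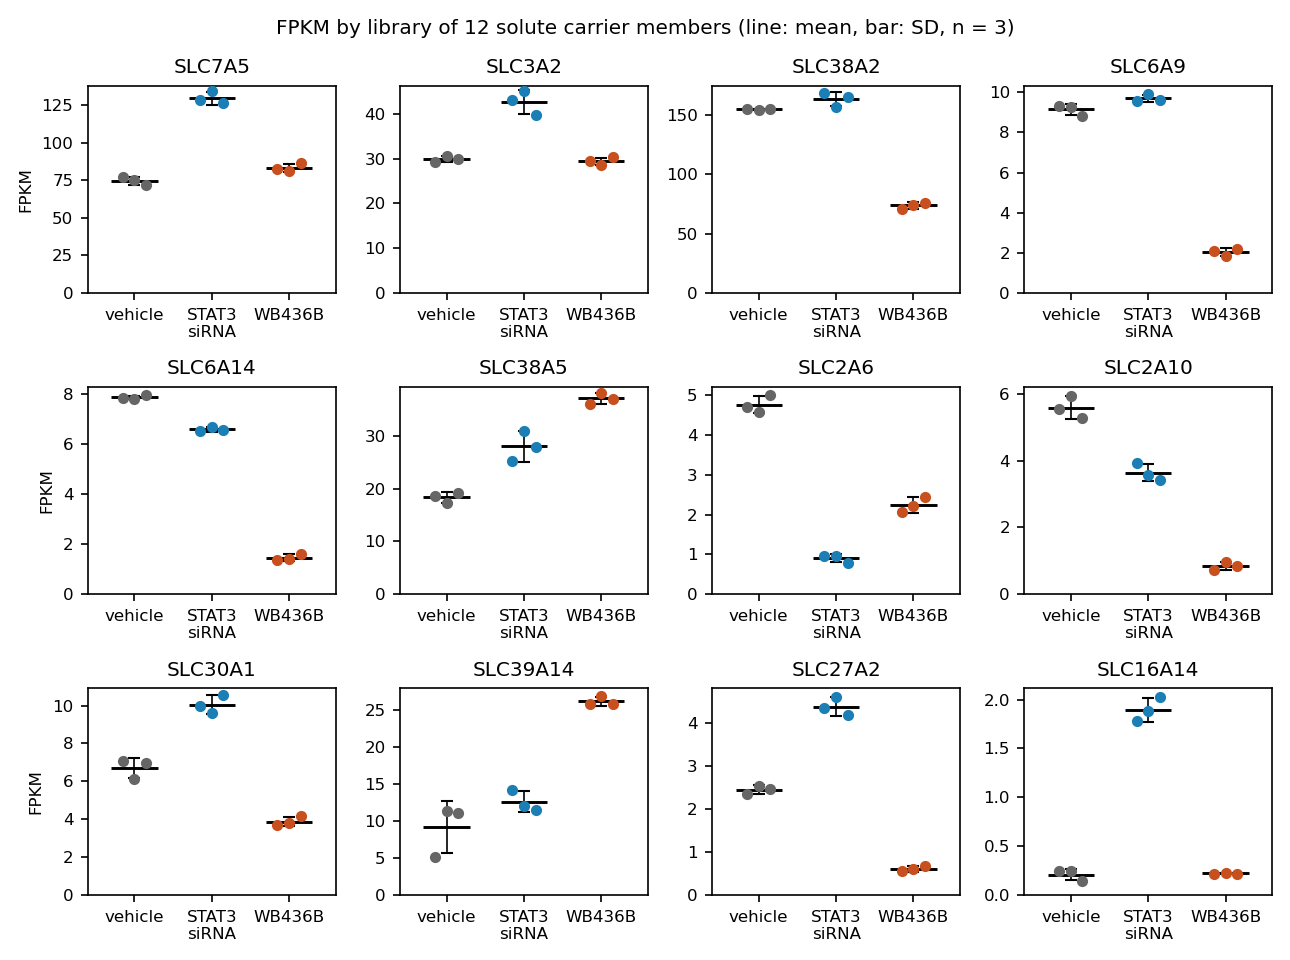
FPKM of 12 members in each library, by group, with the group mean as a line and the SD (n = 3) as a bar, each panel on its own linear axis from 0. SLC7A5 and SLC3A2 are highest after STAT3 siRNA, SLC38A2, SLC6A9, SLC6A14 and SLC2A10 lowest under WB436B, and SLC30A1 and SLC27A2 lie above vehicle after STAT3 siRNA and below it under WB436B.

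Of 13 sugar carriers, 8 were called lower with either treatment in the main fit. With quantile normalization the WB436B calls were 4 higher and 6 lower. SLC2A6 (GLUT6), a lysosome-associated member of the glucose carrier family, was at 4.7, 4.59 and 5.0 FPKM in vehicle, 0.959, 0.964 and 0.792 after STAT3 siRNA and 2.07, 2.21 and 2.45 under WB436B. All groups were apart, with changes of -1.60 after STAT3 siRNA (SE 0.0669, adjusted p = 7.6e-07) and -0.83 under WB436B (adjusted p = 9.5e-06), and WB436B libraries were above STAT3 siRNA libraries by 0.77 (adjusted p = 1.9e-05). SLC2A10 (GLUT10) had the reverse order of treatments, at 5.55, 5.95 and 5.27 FPKM in vehicle, 3.91, 3.57 and 3.43 after STAT3 siRNA and 0.719, 0.952 and 0.848 under WB436B. It fell by 0.51 after STAT3 siRNA (adjusted p = 0.00046) and by 1.84 under WB436B (SE 0.071, adjusted p = 2.1e-07). SLC45A4 was at 5.68, 5.97 and 6.08 FPKM in vehicle, 3.94, 4.06 and 3.47 after STAT3 siRNA and 2.05, 1.95 and 1.99 under WB436B. It fell by 0.52 and 1.21 (adjusted p = 0.00015 and 6.5e-07).

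The urate and sugar carrier SLC2A9 (GLUT9) fell from 1.71 ± 0.0898 to 1.2 ± 0.10 FPKM after STAT3 siRNA and to 0.991 ± 0.116 under WB436B (SD, n = 3; -0.30 and -0.45, adjusted p = 0.0051 and 4e-04), the second call being lost with quantile normalization. SLC37A1, a sugar phosphate carrier, was at 5.78 ± 0.277, 3.89 ± 0.219 and 4.01 ± 0.171 FPKM and fell in both comparisons (adjusted p = 2e-04 and 0.00017). Its relative SLC37A2 was at 18 ± 0.735, 15.5 ± 0.597 and 11 ± 0.607 FPKM, lower in both, though with equal totals the STAT3 siRNA call was lost (-0.15, adjusted p = 0.11). SLC37A3 and SLC45A3 were the members of the class called higher under WB436B, and both were called lower after STAT3 siRNA. SLC37A3 changed by 0.22 under WB436B (adjusted p = 0.0065) and by -0.20 after STAT3 siRNA. The STAT3 siRNA call of SLC37A3 was lost with equal totals (adjusted p = 0.055) and without vehicle 2 (adjusted p = 0.056). SLC45A3 was a member through its WB436B libraries alone, its WB436B value fell to 0.26 (adjusted p = 0.05) without vehicle 1, and its STAT3 siRNA call was lost under 4 alternatives.

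The exception in the class was SLC2A13, a proton-coupled myo-inositol carrier, at 0.771, 0.846 and 0.677 FPKM in vehicle, 1.19, 1.22 and 1.11 after STAT3 siRNA and 0.865, 0.742 and 0.777 under WB436B, which was a member through its STAT3 siRNA libraries alone. Summed FPKM of the 13 sugar carriers was 64.9, 68.2 and 66.1 in vehicle, 52.2, 56.7 and 54.3 after STAT3 siRNA and 42.5, 41.7 and 42.1 under WB436B. The groups were apart, vehicle being highest and WB436B lowest.

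Zinc carriers of the SLC30 and SLC39 families were called in both directions, and no difference between the families or from all genes was tested. Of 6 SLC30 members, 3 were higher and none lower after STAT3 siRNA, and none higher and 3 lower under WB436B. Of 11 SLC39 members, 4 were higher and 2 lower after STAT3 siRNA, and 6 higher and 2 lower under WB436B. The shares over all genes tested were 29.8% and 22.3% after STAT3 siRNA and 24.9% and 41.1% under WB436B, and the 3 of 6 SLC30 members lower under WB436B lie close to the last of these. SLC30A1 (ZnT1), which exports zinc across the plasma membrane, was at 7.06, 6.11 and 6.96 FPKM in vehicle, 10.00, 9.59 and 10.6 after STAT3 siRNA and 3.68, 3.79 and 4.15 under WB436B. The groups did not overlap, and it rose by 0.52 after STAT3 siRNA (adjusted p = 3e-04) and fell by 0.66 under WB436B (adjusted p = 3.9e-05). SLC30A9 rose after STAT3 siRNA (6.74, 9.63 and 9.22 against 13.4, 12.1 and 13.5 FPKM, log2 fold change 0.57, adjusted p = 0.0029).

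On the uptake side, SLC39A14 (ZIP14), which carries zinc, manganese and non-transferrin iron, was at 5.13, 11.4 and 11.2 FPKM in vehicle, 14.2, 12.1 and 11.5 after STAT3 siRNA and 25.8, 26.9 and 25.9 under WB436B. The WB436B libraries were above all others, by 1.48 (SE 0.241, adjusted p = 0.00066), and by 1.15 without vehicle 1, the lowest vehicle library. SLC39A6 (ZIP6) was at 18.5, 18.4 and 18.2 FPKM in vehicle, 28.1, 26.8 and 27.9 after STAT3 siRNA and 26.6, 28.4 and 29.1 under WB436B. It rose in both comparisons (0.56 and 0.58, adjusted p = 1.8e-05 and 6.3e-06). SLC39A8 (ZIP8) was at 7.73, 7.86 and 8.69 FPKM in vehicle, 5.54, 5.34 and 5.59 after STAT3 siRNA and 5.57, 4.97 and 5.52 under WB436B. It fell in both (-0.49 and -0.52, adjusted p = 0.00023 and 8.6e-05). SLC39A4 (ZIP4), an importer of zinc at the plasma membrane, was at 1.76, 1.92 and 1.61 FPKM in vehicle, 1.21, 1.12 and 1.21 after STAT3 siRNA and 2.39, 2.61 and 2.35 under WB436B. The groups did not overlap: it fell by 0.34 after STAT3 siRNA (adjusted p = 0.0019) and rose by 0.32 under WB436B (adjusted p = 0.0018).

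SLC39A10 and SLC39A3 rose after STAT3 siRNA by 0.42 and 0.51 (adjusted p = 0.00011 and 0.00025), and SLC39A13 rose under WB436B by 0.36 (adjusted p = 0.0058). SLC39A11 fell under WB436B (-0.50, adjusted p = 0.0018), a call lost with quantile normalization (-0.16, adjusted p = 0.19). SLC39A9 was called higher after STAT3 siRNA (1.16, adjusted p = 0.034), but its libraries were at 3.42, 3.51 and 2.85 FPKM in vehicle, 8.28, 5.59 and 12.8 after STAT3 siRNA and 2.82, 3.28 and 9.35 under WB436B, and the call was lost with no filter and without 5 of the 6 libraries compared, left out in turn (0.88 to 1.20). SLC39A1 was the member with vehicle and STAT3 siRNA libraries in the same uneven pattern, at 23.4, 7.13 and 9.05 FPKM in vehicle, 21.5, 6.46 and 7.42 after STAT3 siRNA and 24, 24 and 25.9 under WB436B. It was not called in any comparison, and the gene model AL358472.7 on the same strand covers 69.1% of its exon bases.

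**Figure D3:**
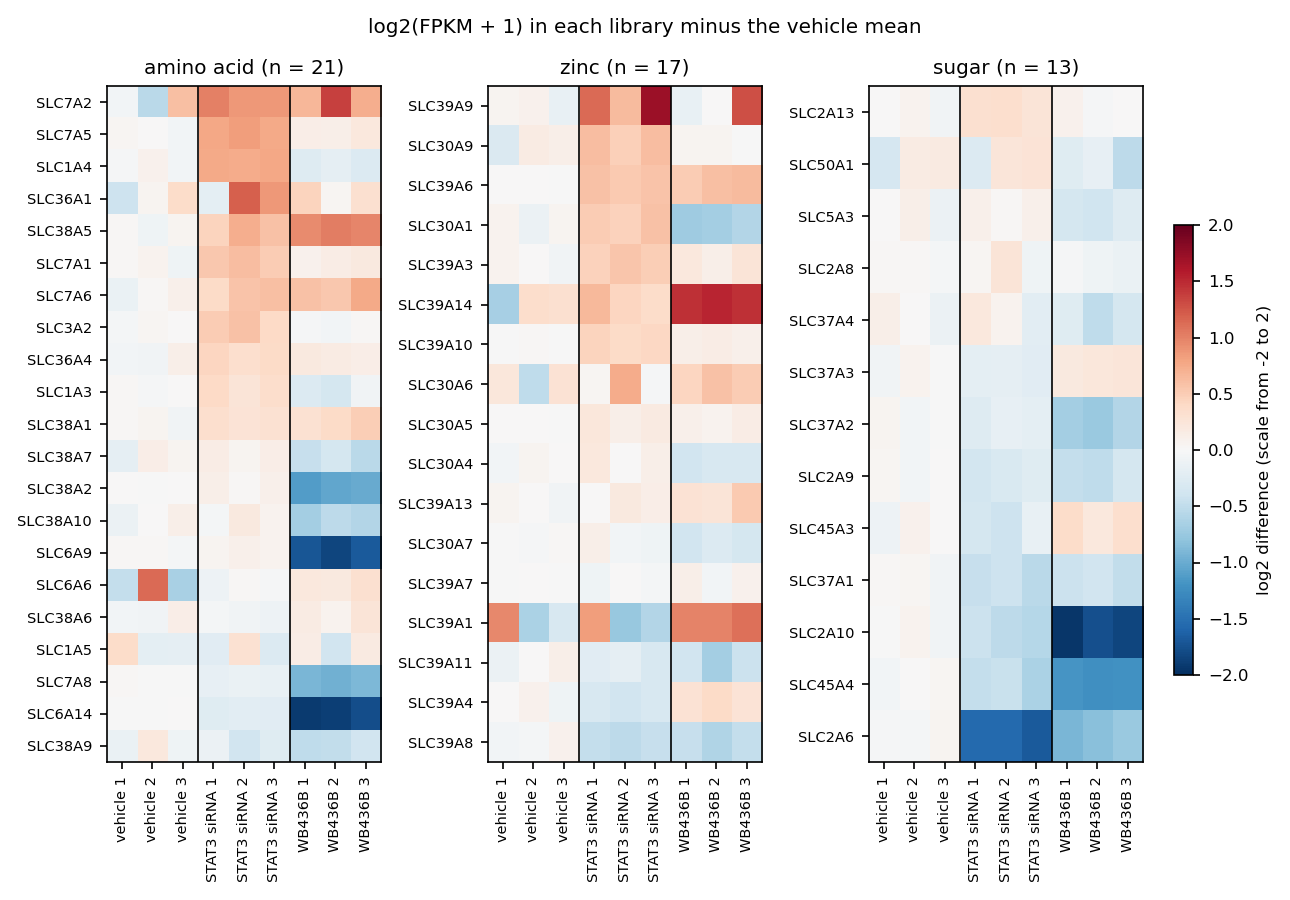
Colour gives log2(FPKM + 1) in each library minus the mean of the 3 vehicle libraries, for all 21 amino acid, 17 zinc and 13 sugar members, ordered within a class by the change after STAT3 siRNA. Red is above the vehicle mean and blue below, on a scale from -2 to 2. SLC6A14, SLC6A9, SLC38A2 and SLC2A10 are blue in all 3 WB436B libraries, and SLC39A1, SLC1A5, SLC6A6 and SLC39A9 show libraries that depart from the others of their group.

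Mitochondrial carriers of the SLC25 family included 3 of the 6 members that were called at least 2-fold higher under WB436B. SLC25A33, a pyrimidine nucleotide carrier, was at 1.78, 2.06 and 2.43 FPKM in vehicle, 4.26, 4.14 and 4.43 after STAT3 siRNA and 5.69, 6.29 and 5.71 under WB436B. The groups were apart and in that order, with changes of 0.78 (SE 0.0801, adjusted p = 8.5e-05) and 1.16 (SE 0.0801, adjusted p = 3.8e-06). SLC25A15, the ornithine carrier of the urea cycle, was at 2.96, 2.9 and 2.66 FPKM in vehicle, 5.95, 6.43 and 6.34 after STAT3 siRNA and 6.95, 7.15 and 6.87 under WB436B. It rose by 0.92 and 1.06 (adjusted p = 3.3e-06 and 6.1e-07). SLC25A32, which brings folate and flavin cofactors into mitochondria, was at 7.17, 7.57 and 8.32 FPKM in vehicle, 10.2, 9.76 and 10.1 after STAT3 siRNA and 16.3, 16.5 and 16.3 under WB436B. It rose by 0.35 and 1.00 (adjusted p = 0.00079 and 9.3e-07), and the gene model AC012213.5 on the same strand covers 80.8% of its exon bases.

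Other SLC25 members rose with either treatment. SLC25A22, a glutamate carrier, went from 3.7 ± 0.225 to 5.25 ± 0.289 and 7.13 ± 0.442 FPKM (SD, n = 3; 0.41 and 0.79, adjusted p = 8e-04 and 9.2e-06). SLC25A25, an ATP-Mg/phosphate carrier, rose by 0.30 and 0.95 (adjusted p = 0.0078 and 6.8e-06), and SLC25A39, which imports glutathione into mitochondria, by 0.55 and 0.38 (adjusted p = 0.00021 and 0.001). SLC25A4, the ADP/ATP exchanger of heart and muscle, was at 1.91, 1.59 and 1.9 FPKM in vehicle, 4.25, 4.32 and 4.66 after STAT3 siRNA and 2.19, 1.61 and 1.52 under WB436B. The STAT3 siRNA libraries were above all others (0.95, adjusted p = 7.8e-05), and WB436B libraries overlapped vehicle. SLC25A11, the oxoglutarate carrier, also rose after STAT3 siRNA, from 11.1, 12.4 and 14 to 18.9, 25 and 19.7 FPKM (0.71, adjusted p = 0.0017).

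The SLC25 members that fell included the basic amino acid carrier SLC25A29, at 6.0, 5.78 and 5.7 FPKM in vehicle, 3.73, 4.2 and 3.95 after STAT3 siRNA and 1.27, 1.34 and 0.905 under WB436B, with groups apart and changes of -0.46 and -1.66 (adjusted p = 0.0018 and 6.8e-07). SLC25A37 (mitoferrin-1), which brings iron into mitochondria, was at 11.6, 12 and 11.3 FPKM in vehicle, 7.24, 7.24 and 6.98 after STAT3 siRNA and 7.84, 8.72 and 8.26 under WB436B. It fell by 0.63 and 0.45 (adjusted p = 1.9e-05 and 6.6e-05). Under WB436B, the calcium-binding ATP-Mg/phosphate carrier SLC25A23 and the aspartate/glutamate carrier SLC25A12 fell by 0.77 and 0.74 (adjusted p = 2.3e-05 and 0.00013). Their means were 2.85 ± 0.328 and 4.83 ± 0.806 FPKM in vehicle and 1.25 ± 0.0522 and 2.46 ± 0.0305 under WB436B. SLC25A44, a carrier of branched-chain amino acids, fell after STAT3 siRNA (-0.33, adjusted p = 0.0067).

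The dominant SLC25A5 (ANT2) was at 511, 496 and 516 FPKM in vehicle, 411, 424 and 414 after STAT3 siRNA and 486, 473 and 456 under WB436B, with STAT3 siRNA libraries below all others (-0.29, SE 0.0401, adjusted p = 0.00046). Its difference under WB436B (-0.11, adjusted p = 0.044) was lost in most alternatives and was 0.06 with median-of-ratios scaling. SLC25A5 and its paralogue SLC25A6 are nearly identical and have processed pseudogenes, so fragments may have been divided between them by a rule not known here. The phosphate carrier SLC25A3 was at 29.97, 33.4 and 32.6 FPKM in vehicle, 25.1, 25.2 and 29.1 after STAT3 siRNA and 37.1, 37.3 and 36.2 under WB436B, fell after STAT3 siRNA (-0.27, adjusted p = 0.0091) and was 0.20 under WB436B (adjusted p = 0.025, lost under 5 alternatives). Summed over the 34 members, FPKM was 834.3, 828.8 and 839.1 in vehicle, 758.9, 780.8 and 771.3 after STAT3 siRNA and 828.6, 802.5 and 799.8 under WB436B. As deposited, the STAT3 siRNA sums were the lowest although 16 members were higher and 6 lower, SLC25A5 being the largest part of the sum in every group. Relative to the FPKM totals over all genes, the STAT3 siRNA sums overlap vehicle.

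**Figure D4:**
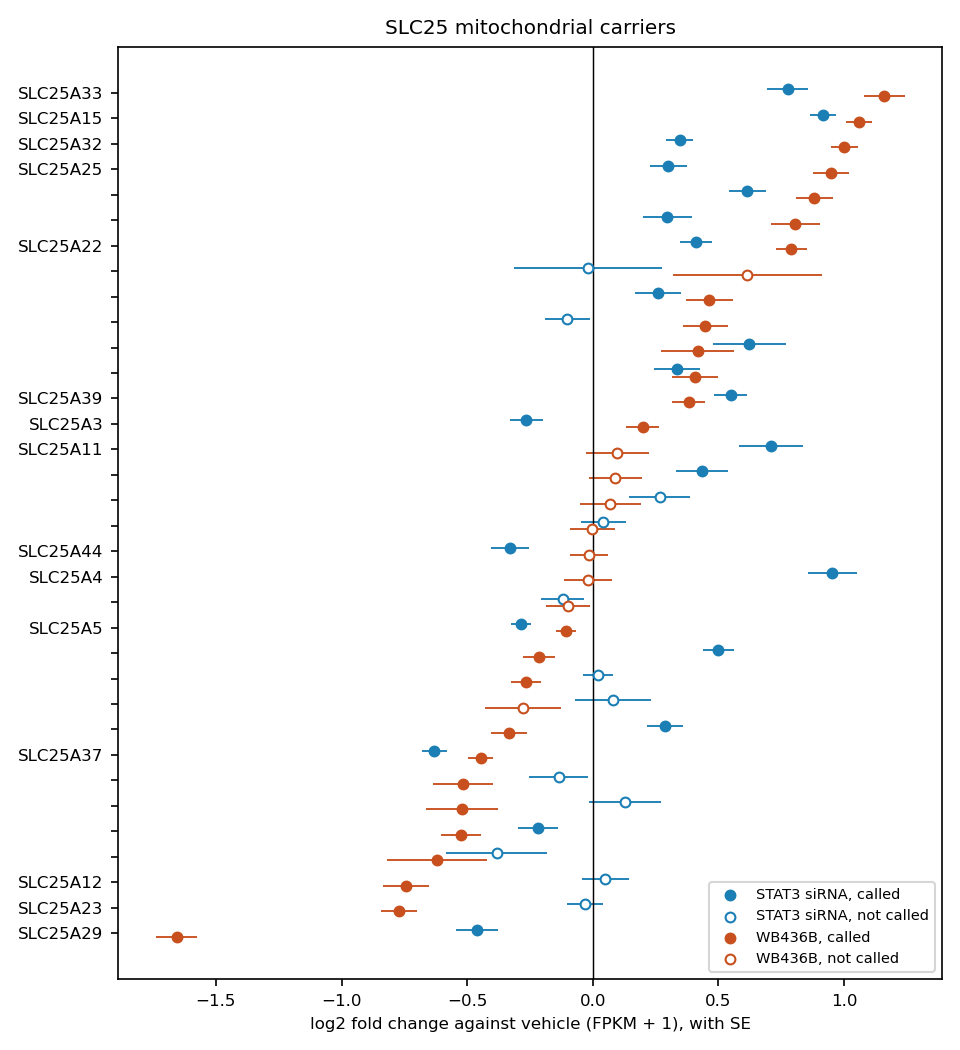
Log2 fold change of FPKM + 1 against vehicle for the 34 SLC25 members, with SE bars, for STAT3 siRNA (blue) and WB436B (orange), ordered by the WB436B value, with labels only on members described in the text. Filled points are called and open points are not. SLC25A33, SLC25A15 and SLC25A32 lie at the top with WB436B values of 1.00 to 1.16, and SLC25A29 at the bottom with -1.66.

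Ion carriers of the SLC4, SLC9, SLC12, SLC20 and SLC41 families moved in both directions. SLC12A2 (NKCC1), the sodium-potassium-chloride cotransporter that loads epithelial cells with chloride, was at 7.1, 7.25 and 6.61 FPKM in vehicle, 13.1, 12.2 and 13.1 after STAT3 siRNA and 5.75, 6.03 and 6.41 under WB436B. It rose after STAT3 siRNA without overlap (0.79, SE 0.056, adjusted p = 1.1e-05), while its WB436B value of -0.18 (adjusted p = 0.021) lost its call under each of the 3 scalings, the replicate block and 4 omissions of a library. The potassium-chloride cotransporter SLC12A7 (KCC4) was at 13.6, 13.1 and 11.4 FPKM in vehicle, 7.54, 8.0 and 7.54 after STAT3 siRNA and 8.93, 9.26 and 9.61 under WB436B. It fell in both comparisons (-0.65 and -0.41, adjusted p = 7.7e-05 and 6e-04). SLC12A8 was at 0.809, 0.809 and 0.886 FPKM in vehicle, 2.14, 2.1 and 1.95 after STAT3 siRNA and 1.75, 2.15 and 1.79 under WB436B. It was below 1 FPKM in vehicle only, so a rise was part of how it was chosen. Its fitted changes of 0.74 and 0.66 are a description. SLC12A9 rose after STAT3 siRNA (0.48, adjusted p = 0.00062).

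Under WB436B the magnesium carrier SLC41A1 was at 9.34, 9.25 and 10.7 FPKM against 5.3, 5.44 and 4.53 in vehicle, above every vehicle library (0.82, adjusted p = 7.4e-05). The sodium-phosphate cotransporter SLC20A2 (PiT-2) was at 18.7, 18.7 and 19.7 against 12.5, 11.5 and 11.8 (0.63, adjusted p = 5.1e-06), also without overlap. Both SLC9A7 and SLC9A8, sodium-proton exchangers of the Golgi and endosomes, fell under WB436B, SLC9A7 from 2.9 ± 0.0553 to 1.63 ± 0.108 FPKM (-0.57, adjusted p = 5.4e-05) and SLC9A8 from 4.97 ± 0.331 to 3.14 ± 0.142 (-0.53, adjusted p = 5.6e-05), as did SLC8B1, the mitochondrial sodium-calcium exchanger (-0.56, adjusted p = 0.00036). SLC9A8 fell after STAT3 siRNA as well (-0.34, adjusted p = 0.0014), and SLC4A3, a member through its vehicle libraries alone, was at 1.1, 1.08 and 1.19 FPKM in vehicle and 0.481, 0.618 and 0.42 after STAT3 siRNA.

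The 13 SLC35 members classed as nucleotide sugar carriers were placed by family and include related orphans and carriers of other substrates. After STAT3 siRNA 4 were higher and 2 lower (30.8% and 15.4%, against 29.8% and 22.3% of all genes). Their median was 0.05, and -0.01 with median-of-ratios scaling. Under WB436B 1 was higher and 6 lower (7.69% and 46.2%, against 24.9% and 41.1%, the share lower being near that of all genes). The median was -0.18 there, and 0.06 with quantile normalization. SLC35D1, which brings UDP-glucuronic acid and UDP-N-acetylgalactosamine into the endoplasmic reticulum, was at 4.19, 4.65 and 4.31 FPKM in vehicle, 7.54, 7.17 and 7.43 after STAT3 siRNA and 3.3, 3.38 and 3.83 under WB436B. It rose after STAT3 siRNA (0.64, adjusted p = 5.3e-05). SLC35B4 rose as well (0.42, adjusted p = 0.00046), and SLC35A4 was called at 0.31 (adjusted p = 0.019, 0.063 without vehicle 1). SLC35C1, the GDP-fucose carrier of the Golgi, was at 14.2, 14.9 and 13.4 FPKM in vehicle, 10.5, 11 and 10.5 after STAT3 siRNA and 12.4, 12 and 12.8 under WB436B. It fell after STAT3 siRNA (-0.38, adjusted p = 0.00035), as did SLC35B2, a carrier of the sulfate donor PAPS (-0.30, adjusted p = 0.02, lost under 3 alternatives).

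Under WB436B, SLC35A1, the CMP-sialic acid carrier, was at 2.08, 2.3 and 2.17 FPKM against 3.47, 3.9 and 3.6 in vehicle (-0.55, adjusted p = 1e-04). It shares 55.5% of its exon bases with another gene model. SLC35C2 and SLC35A3 were called lower (-0.57 and -0.48, adjusted p = 0.01 and 0.018), and both calls were lost with quantile normalization (adjusted p = 0.07 and 0.27). Leaving out vehicle 3 or WB436B 1 also ended the call of SLC35A3 (adjusted p = 0.061 and 0.06). SLC35B1, an ATP/ADP exchanger of the endoplasmic reticulum, was the member called higher, at 3.22 ± 0.244 FPKM in vehicle and 4.26 ± 0.322 under WB436B (0.32, adjusted p = 0.0037).

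The 49 carriers of other substrates held the remaining large changes. After STAT3 siRNA 14 were higher and 16 lower (28.6% and 32.7%, against 29.8% and 22.3% of all genes, median 0.07). Under WB436B 13 were higher and 23 lower (26.5% and 46.9%, against 24.9% and 41.1%, shares near those of all genes). The WB436B median was -0.15, and 0.05 with quantile normalization. Among the monocarboxylate carriers of the SLC16 family, SLC16A1 (MCT1), which moves lactate and pyruvate with protons, was at 13.5, 14 and 14.7 FPKM in vehicle, 22.9, 27.2 and 23.8 after STAT3 siRNA and 26.2, 33.2 and 27.5 under WB436B. Both treatments were above vehicle without overlap (0.76 and 0.99, adjusted p = 0.00023 and 2.7e-05). SLC16A3 (MCT4), the lactate exporter of glycolytic cells, was at 7.7, 8.52 and 8.39 FPKM in vehicle, 5.02, 5.18 and 5.16 after STAT3 siRNA and 7.99, 7.41 and 7.44 under WB436B. It fell by 0.59 after STAT3 siRNA (adjusted p = 3.7e-05) and overlapped vehicle under WB436B (-0.10, adjusted p = 0.14; median-of-ratios scaling gave 0.05). SLC16A5 (MCT6) was at 7.55, 7.43 and 6.67 FPKM in vehicle, 3.42, 3.39 and 3.33 after STAT3 siRNA and 2.34, 2.24 and 2.02 under WB436B. It fell in both comparisons (-0.91 and -1.36, adjusted p = 8.7e-06 and 4.3e-07). SLC16A14, a member through its STAT3 siRNA libraries alone, was at 0.242, 0.242 and 0.145 FPKM in vehicle, 1.78, 1.89 and 2.02 after STAT3 siRNA and 0.218, 0.23 and 0.215 under WB436B, with the highest fitted change of any member after STAT3 siRNA (1.26).

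Among the rest of this class, the largest increases under WB436B were in 4 carriers. SLC29A1 (ENT1), the equilibrative nucleoside carrier through which gemcitabine enters cells, was at 2.14, 2.24 and 2.46 FPKM in vehicle, 4.18, 5.24 and 5.12 after STAT3 siRNA and 6.94, 6.68 and 6.04 under WB436B. The groups were apart and in that order (0.83 and 1.20, SE 0.085 for both, adjusted p = 8.1e-05 and 4.4e-06). SLC19A1 (the reduced folate carrier) was at 0.592, 0.539 and 0.554 FPKM in vehicle, 1.04, 0.838 and 1.17 after STAT3 siRNA and 2.25, 2.09 and 2.13 under WB436B. No vehicle library reached 1 FPKM, so a rise was part of how SLC19A1 was chosen. Its fitted changes of 0.36 and 1.02 are a description. SLC5A6, the sodium-dependent multivitamin carrier for biotin and pantothenate, was at 2.53, 2.25 and 2.31 FPKM in vehicle, 5.67, 5.66 and 4.14 after STAT3 siRNA and 5.78, 5.07 and 5.79 under WB436B. It rose by 0.86 and 0.96 (adjusted p = 0.00022 and 6.1e-05). Vehicle lay below both treatments, without overlap, in SLC29A1, SLC19A1 and SLC5A6. SLC43A3, a purine nucleobase carrier, was at 0.469, 0.796 and 0.689 FPKM in vehicle, 2.43, 2.46 and 1.85 after STAT3 siRNA and 2.0, 2.11 and 1.88 under WB436B. It was below 1 FPKM in vehicle only, so its fitted changes of 0.98 and 0.86 are a description too. The creatine carrier SLC6A8 rose under WB436B (0.45, adjusted p = 0.00012).

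The riboflavin carrier SLC52A3 went the other way, at 10.6, 9.98 and 9.12 FPKM in vehicle, 4.04, 5.07 and 3.56 after STAT3 siRNA and 3.89, 3.78 and 3.64 under WB436B, with changes of -1.07 and -1.19 (adjusted p = 5.5e-05 and 1.4e-05). SLC22A3 (OCT3), an organic cation carrier, was at 7.16, 6.95 and 6.81 FPKM in vehicle, 2.89, 2.82 and 2.54 after STAT3 siRNA and 3.57, 3.58 and 3.73 under WB436B. It fell by 1.09 and 0.79 (adjusted p = 1.5e-06 and 3.2e-06). SLC22A23, an orphan of the same family, was at 5.64, 5.02 and 5.27 FPKM in vehicle, 3.6, 3.03 and 2.95 after STAT3 siRNA and 1.31, 1.28 and 1.31 under WB436B. It fell by 0.59 and 1.45 (adjusted p = 0.00019 and 5.9e-07). In SLC52A3 and both SLC22 members vehicle was above each treatment without overlap.

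Among the 5 members chosen through their vehicle libraries alone were SLC44A4, a carrier of thiamine pyrophosphate and choline, at 2.07, 2.29 and 2.39 FPKM in vehicle, 0.509, 0.504 and 0.573 after STAT3 siRNA and 0.527, 0.449 and 0.333 under WB436B, and SLC10A6, a carrier of sulfated steroids, at 1.75, 1.45 and 1.49 FPKM in vehicle, 0.161, 0.16 and 0.144 after STAT3 siRNA and 0.501, 0.523 and 0.74 under WB436B. Their fitted changes of -1.09 and -1.18 and of -1.15 and -0.69 are a description. The choline carrier-like SLC44A5 was at 10.6, 10.6 and 10.2 FPKM in vehicle and 5.55, 5.35 and 5.46 under WB436B (-0.82, adjusted p = 7.4e-07).

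A direct contrast of WB436B with STAT3 siRNA tested where the treatments differed. The largest fall on the log2(FPKM + 1) scale was in SLC6A9 (-1.82, adjusted p = 1.2e-07), followed by SLC27A2 (FATP2), a fatty acid carrier and acyl-CoA synthetase, at 2.34, 2.54 and 2.46 FPKM in vehicle, 4.33, 4.6 and 4.19 after STAT3 siRNA and 0.55, 0.594 and 0.668 under WB436B. SLC27A2 lay above vehicle after STAT3 siRNA and below it under WB436B (0.64 and -1.10, adjusted p = 3.8e-05 and 8.2e-07), a difference between treatments of -1.74 (adjusted p = 1.6e-07). SLC6A14 (-1.63), SLC2A10 (-1.33) and SLC35E2 (-1.24) were also lower, the last at 5.99, 5.66 and 5.62 FPKM in vehicle, 5.94, 6.13 and 6.07 after STAT3 siRNA and 1.89, 2.04 and 2.01 under WB436B. SLC16A14 had a value of -1.25, a description only, since its STAT3 siRNA libraries alone made it a member. Among the members higher under WB436B than after STAT3 siRNA were SLC39A14 (1.00), SLC4A7 (0.92), SLC2A6 (0.77), SLC39A4 (0.66) and SLC25A32 (0.66), each called.

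Besides SLC27A2 and SLC30A1, the members whose treatments went in opposite called directions by the widest margins on this scale included SLC17A5, SLC12A2 and SLC4A7. SLC1A4 had such values too, but its level after STAT3 siRNA alone made it a member. SLC17A5 (sialin), which exports sialic acid from lysosomes, was at 3.5, 3.51 and 3.47 FPKM in vehicle, 5.15, 5.25 and 5.23 after STAT3 siRNA and 1.86, 1.85 and 1.93 under WB436B, without overlap. Its changes were 0.47 and -0.64, a difference of -1.11 (adjusted p = 3.7e-07). SLC4A7 (NBCn1), a sodium bicarbonate cotransporter, was at 4.61, 4.89 and 4.45 FPKM in vehicle, 3.87, 3.15 and 3.81 after STAT3 siRNA and 6.93, 7.79 and 8.38 under WB436B. Its changes were -0.30 and 0.62, a difference of 0.92 (adjusted p = 2.6e-05). Its call after STAT3 siRNA was lost without vehicle 2 or STAT3 siRNA 2 (-0.27 and -0.22).

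A list of 44 partners and regulators of solute carriers, such as chaperone subunits, the Na+/K+ pump, kinases that regulate ion carriers, and nutrient response factors, was read beside the members. Of these, 42 were in the table and 35 were tested, with 13 higher and 5 lower after STAT3 siRNA (37.1% and 14.3%, against 29.8% and 22.3% of all genes). Under WB436B 10 were higher and 10 lower (28.6% each, against 24.9% and 41.1%), and between the treatments 10 and 13 (28.6% and 37.1%, against 20.0% and 44.1%). ATF4, the transcription factor of the amino acid response that acts on SLC7A5, SLC3A2 and SLC38A2 among others, was at 148, 149 and 159.8 FPKM in vehicle, 203, 209 and 216 after STAT3 siRNA and 114, 105 and 101 under WB436B. The groups were apart, with changes of 0.46 and -0.51 (adjusted p = 0.00018 and 5.1e-05). ASNS (asparagine synthetase), another ATF4 target, was at 6.53, 7.98 and 11.2 FPKM in vehicle, 14.2, 11.3 and 12.1 after STAT3 siRNA and 3.94, 4.29 and 3.88 under WB436B, 0.52 after STAT3 siRNA (adjusted p = 0.025, lost under 6 alternatives) and -0.90 under WB436B (adjusted p = 0.0012).

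SGK1, a kinase that raises the activity of many sodium-coupled carriers, was at 11.3, 13.3 and 10.9 FPKM in vehicle, 2.17, 2.09 and 1.96 after STAT3 siRNA and 2.68, 3.0 and 3.61 under WB436B. It fell by 2.06 and 1.65 (adjusted p = 1.4e-06 and 1.6e-06). ATP1B1, the beta subunit of the Na+/K+ pump, was at 64.2, 63.2 and 65.4 FPKM in vehicle, 31.6, 30.3 and 31.4 after STAT3 siRNA and 22.3, 24 and 22.9 under WB436B. It fell by 1.02 and 1.44 (adjusted p = 6.4e-07 and 5.8e-08). Both were highest in vehicle without overlap. The arrestins TXNIP and ARRDC4, which bring glucose carriers in from the surface, were higher after STAT3 siRNA (0.88 and 1.26, adjusted p = 3.2e-06 and 2.4e-06), and TXNIP was lower under WB436B (-0.73, adjusted p = 3.4e-06), at 35.8, 35.9 and 37.5 FPKM in vehicle, 70.2, 66.4 and 66.5 after STAT3 siRNA and 20.9, 20.9 and 23 under WB436B.

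Of the zinc-responsive metallothioneins, MT1E was at 26.3, 24.6 and 31.4 FPKM in vehicle, 61.4, 56.7 and 63.5 after STAT3 siRNA and 64.5, 62.2 and 50.4 under WB436B. It rose in both comparisons (1.12 and 1.08, adjusted p = 7.4e-05 and 4.4e-05). MT2A was at 93, 84.5 and 89.97 FPKM in vehicle, 65.7, 73.8 and 74.5 after STAT3 siRNA and 177, 168 and 138 under WB436B, below vehicle after STAT3 siRNA (-0.32, adjusted p = 0.021), above it under WB436B (0.84, adjusted p = 6.9e-05) and apart from STAT3 siRNA by 1.16 (adjusted p = 1.4e-05). Its STAT3 siRNA call was lost with no filter (adjusted p = 0.056) and without vehicle 1, vehicle 3 or STAT3 siRNA 1 (-0.31 to -0.26, adjusted p = 0.053 to 0.073). MT1X was at 9.74, 8.4 and 11.3 FPKM in vehicle, 10.3, 8.69 and 12.3 after STAT3 siRNA and 8.14, 7.73 and 5.31 under WB436B, not called against vehicle (0.08 and -0.43, adjusted p = 0.73 and 0.051) and lower under WB436B than after STAT3 siRNA (-0.51, adjusted p = 0.028). That call was lost with no filter, median-of-ratios scaling and quantile normalization, and without STAT3 siRNA 1, STAT3 siRNA 3 or WB436B 3 (adjusted p = 0.062 to 0.16), while the WB436B value against vehicle became called without any 1 of 4 libraries. Metallothioneins are near-identical copies, so the split of fragments between them is uncertain. OXSR1, a kinase that activates SLC12A2 and inhibits the potassium-chloride cotransporters, was at 17.3, 17.6 and 17.4 FPKM in vehicle, 20.3, 20.3 and 19.8 after STAT3 siRNA and 30.8, 33.1 and 32.7 under WB436B. It rose by 0.20 and 0.85 (adjusted p = 0.0034 and 4.9e-07). MPC2, a subunit of the mitochondrial pyruvate carrier, rose by 0.47 after STAT3 siRNA and fell by 0.21 under WB436B (adjusted p = 0.00012 and 0.0071). SLC9A3R1 (NHERF1), a scaffold of SLC9A3 that the member pattern does not match, was at 30.7, 31.4 and 51.4 FPKM in vehicle, 28, 28.8 and 13.4 after STAT3 siRNA and 10.02, 15.9 and 18.4 under WB436B. It fell under WB436B (-1.30, adjusted p = 0.0085). CHP1, a cofactor of the SLC9 exchangers, was at 32, 7.41 and 30.6 FPKM in vehicle, 35.9, 37.4 and 40.3 after STAT3 siRNA and 3.79, 4.99 and 20.8 under WB436B, with 1 library of vehicle and 1 of WB436B apart from the others of their groups, and its call between the treatments (-2.18, adjusted p = 0.017) was lost without WB436B 1 or WB436B 2.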

How the data were processed

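RNA-seq values came from the authors' deposited table of FPKM, 1 column for each of 9 libraries. Bowtie 0.12.2 and build mm8 are named, per the submitters' processing notes. As mm8 is a mouse build and the gene identifiers are human, no coordinates were taken from the files. The sources used here do not name the program that computed FPKM, its annotation or the strandedness. FPKM is relative to each library's total, so a shift in many genes moves all others. Depth was taken from the most common value of FPKM times exon length among weak genes with 1 transcript, with exon lengths from GENCODE 29. That value was read as 1 fragment, which was not checked, so an estimate may be off by a whole multiple. Intervals are not given because counts are not known.

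Values were analysed as log2(FPKM + 1), which understates changes of low genes. A limma-trend model (limma 3.58.1, R 4.3.3) with 1 mean per group was fitted to 12747 genes at 1 FPKM in at least 3 libraries, without a block, leaving 6 residual degrees of freedom. Tests were two-sided with Benjamini-Hochberg adjustment over all genes, called below 0.05. The fit was tested on simulated data with changes planted for each of the 3 comparisons. The members, the substrate classes, the partner list and the promoter motifs were chosen with earlier results of these data known. Members named were up to 3 per class and direction with the largest called, non-overlapping changes against vehicle that averaged 1 FPKM in the higher group, 6 per direction between the treatments, up to 6 called in opposite directions, SLC7A5, SLC3A2, SLC1A5, SLC38A2, SLC16A1, SLC16A3, SLC25A5 and SLC30A1, and partners called at 2-fold or by smallest adjusted p. Other genes were named after their values were seen, for their role or spread: SLC7A1, SLC38A1, SLC38A7, SLC38A9, SLC6A6, SLC25A3, SLC25A6, SLC25A11, SLC25A22, SLC25A25, SLC25A39, SLC39A1, SLC39A3, SLC39A10, SLC37A1, SLC37A2, SLC2A9, SLC6A8, SLC44A5 and MT1X. Some genes that the rule names are not reported here. Promoter sequences are RefSeq's, matched by symbol. Counts of alternatives that lost a call leave out the stricter threshold of 0.01.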

Additional observations from a re-analysis of the deposited data

How the results depend on the processing

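The alternatives were pseudocounts of 0.1 and 0.5, no filter, a filter of 5 FPKM, equal totals, median-of-ratios scaling, quantile normalization, a fit of the compared groups alone, no variance trend, the replicate block, a threshold of 0.01 and leaving out each library. The filter of 5 FPKM, under which 91 members were tested, gave 36 higher and 24 lower after STAT3 siRNA, 31 and 38 under WB436B, and 24 and 37 between the treatments. Median-of-ratios scaling gave 65 members higher between the treatments, and quantile normalization 46 lower both under WB436B and between the treatments. Leaving out 1 library gave 51 to 60 higher and 33 to 41 lower after STAT3 siRNA, 45 to 51 and 61 to 69 under WB436B, and 37 to 44 and 62 to 72 between the treatments. The replicate block gave 59 and 40, 49 and 66, and 42 and 68, within 1.5 times of the counts without it. The deviations of same-numbered libraries correlated by -0.0847 to 0.158, and vehicle 1 alone correlated best with its own number in both other groups. These weak values show no clear pairing by number, but with 3 libraries per group they cannot exclude that same-numbered libraries were handled together. For the genes named by rule or by choice, called values kept direction and call in 3609 settings, lost the call in 114 and turned in 2, and values not called kept their side and direction in 174, became called in 9 and turned in 17. The turned values under WB436B were SLC16A3 at 0.0493, SLC25A5 at 0.0563, SLC3A2 at 0.137 and SLC1A5 at 0.141 with median-of-ratios scaling, SLC3A2 at 0.0489 and SLC1A5 at 0.0512 with equal totals, and SLC1A4 at 0.12 with quantile normalization. SLC1A5 also turned between the treatments (-0.0889 with quantile normalization) and without single libraries, where it ranged from -0.255 to 0.11 after STAT3 siRNA, from -0.119 to 0.165 under WB436B and from -0.0533 to 0.236 between the treatments, and MT1X after STAT3 siRNA (-0.0372 to 0.192). The causes were not tested. The estimated depth limits members near 1 FPKM most.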
